A study of Drosophila melanogaster with 16 samples.

Results

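The change in head transcript levels between the 2nd and the 7th day of pentylenetetrazole (PTZ) feeding was measured in female flies, as the difference between the log2 PTZ over NF ratios of the 4 arrays titled 7th day and those of the 4 titled 2nd day. NF is normal food. A ratio of 0 means equal signal in PTZ and NF heads, and a negative ratio means less signal after PTZ. A feature, which is a named gene or an unnamed pair of neighbouring spots, entered when at least 3 of 4 arrays on each side held a value. Of the 13059 features on the array 4196 did so, 2092 of them named genes out of 6793. The flies were virgin females of the Oregon-R wild type, 3 to 4 days old when feeding began, kept at 30 per vial. PTZ was given at 8 mg/ml in NF, and flies on NF alone in parallel were the control of every array. Heads were pooled over vials, each replicate came from its own set of vials, and RNA of the 2 treatments was hybridised to 1 two-colour cDNA array. PTZ RNA was labelled with Cy5 for replicates 1 and 2, and with Cy3 for replicates 3 and 4. Further sets of 4 arrays at 12 hrs of PTZ and on the 14th day, after 7 days of PTZ and 7 days of NF, are used below only to follow the genes described.

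PTZ is a convulsant that blocks GABA-A receptor chloride channels, and in flies chronic feeding has been used to model seizure-related plasticity. The fly head holds brain, eyes and muscle, and also fat body, the insect tissue that stores lipid and glycogen and secretes lipoproteins into the haemolymph. Lipid leaves these stores when adipokinetic hormone, the fly counterpart of glucagon, acts on its receptor and lipases release fatty acids, which are then oxidised in mitochondria and peroxisomes.

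The arrays held a value for 10169 to 15066 spots (2nd day) and 11358 to 17809 spots (7th day). Their median red over green log2 ratios as deposited lay between -0.20 and -0.05 for the 2nd day arrays and between 0.72 and 1.38 for those of the 7th day, so each array was centred on its own median. On the 2nd day, arrays of the same dye orientation had Spearman correlations of 0.32 and 0.42 across features, and arrays of opposite orientation, after turning to PTZ over NF, of -0.38 to -0.10. One array, 7th day replicate 4, has labels that disagree, since it is titled as 7th day while the text on its treatment is that of withdrawal. Across features this array had Spearman correlations of -0.06 to 0.00 with the other 7th day arrays. With replicates 1 to 4 of the 2nd day they were -0.08, -0.15, 0.13 and 0.25. With replicates 1 to 4 of the 14th day they were -0.38, -0.16, 0.04 and 0.27, and with the 12 hrs arrays -0.09 to 0.12. Replicates 3 and 4 carry the same dye orientation as this array. It was kept by its title, and results are also given without it. The growth texts name male flies, whereas the titles and the sex labels give female.

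Across all features the median difference between the 7th and the 2nd day was -0.04, and 58.0% of the differences were below 0. No named gene passed the test of the difference (limma, Benjamini-Hochberg adjusted p under 0.19 over 4196 features). The call went to 1 unnamed spot pair, which was lower (0.0238% of the features), and no feature was called higher (0%). At an unadjusted p under 0.05 there were 142 lower features (3.38%) and 122 higher ones (2.91%). The called pair occupies array rows 9267 and 9268. Its ratios were -0.13, -0.18, 0.12 and 0.20 on the 2nd day and -1.14, -1.34 and -1.57 in replicates 1 to 3 of the 7th day, with no value in replicate 4. All its 7th day values were below all its 2nd day values, and the difference was -1.35 (SE 0.16, limma adjusted p = 0.145). This call was lost in 11 of 18 alternatives, among them without centring and on leaving out any 1 of 6 arrays. The alternative that required all 4 arrays on each side could not test the pair. Without 7th day replicate 4 the calls numbered 8 lower (0.191%) and 23 higher (0.548%), nearly all with an adjusted p that rounds to the threshold of 0.19, and without centring they numbered 2 lower, the pair above not among them, and 24 higher. The 13 named genes called without that array were GstD1, Jon65Aiv and rdx on the lower side and CROT, CG5707, CG8654, regucalcin, CG12863, CG10466, CG17294, Cpr64Aa, Spn38F and Vha16-1 on the higher side. Of these, Jon65Aiv, CROT, CG5707, CG12863, CG10466, CG17294, Cpr64Aa and Spn38F also lacked 7th day replicate 3. Their 7th day side then rests on replicates 1 and 2, both with PTZ in Cy5, where dye and PTZ cannot be told apart.

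By size, 55 of the tested features were changed on the 2nd day (1.31%), meaning a 2nd day mean of at least 0.5 log2 units with 1 sign on every array that measured it. A 2nd day change was said to have returned when the 7th day mean was between -0.5 and 0.5 times the 2nd day mean, to be kept at 0.5 times or more, and to have turned at -0.5 times or less. The 2nd day values chose these features, so their 2nd day means and the differences are a description, whereas the 7th day means were not used in the choice. Returned features numbered 36, kept ones 10 and turned ones 9. These counts stand against a Spearman correlation between the 2nd day and 7th day means of -0.006 across all features and 0.05 across named genes. Without 7th day replicate 4 the numbers were 30, 13 and 12, with 28, 9 and 8 features in the same class both times. Among the 41 lower features (0.977%), 26 returned, 6 were kept and 9 turned. Their median was -0.82 on the 2nd day, against -0.07 on the 7th, and 53.7% of them had a 7th day mean below 0, against 56.3% of all features. A 7th day mean under 0.25 in size was found in 34.1% of them and in 77.0% of all features. Among the 14 higher features (0.334%), 10 returned, 4 were kept and none turned, and 13 of the 14 still had a 7th day mean above 0. Their median was 0.79 on the 2nd day, against 0.33 on the 7th. The 9 that turned were all unnamed spot pairs. Just inside the limit of 0.5 stood regucalcin at -0.52 and CG8745 at 0.52, and just outside it trbd at -0.46 and Cyt-b5-r at 0.44.

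**Figure D1:**
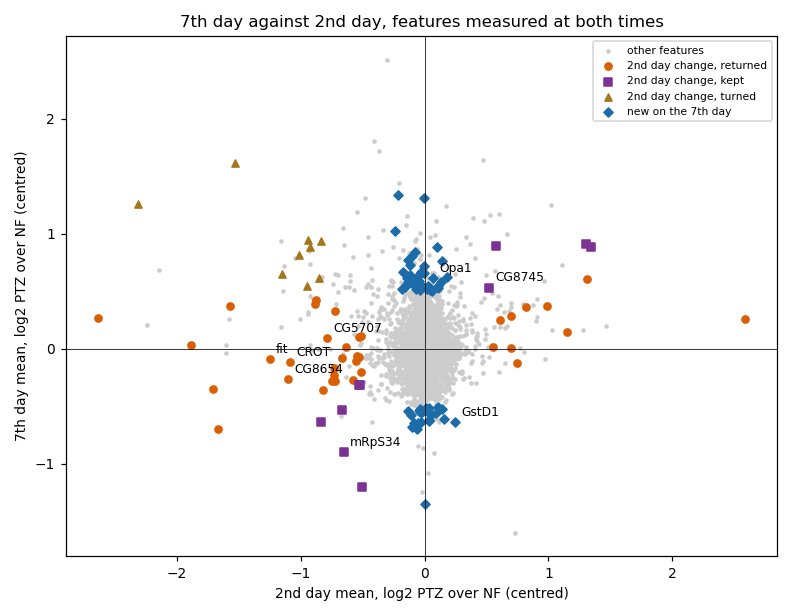
Mean log2 PTZ over NF of each of the 4196 features on the 2nd day (horizontal axis) and on the 7th day (vertical axis), each array centred on its median. Coloured points are the 55 changes of the 2nd day, by class, and the 66 changes new on the 7th day; 36 of the 55 have a 7th day mean that lies within 0.5 times their 2nd day mean on either side of 0.

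Of the 12 named genes lower on the 2nd day, 11 returned and 1, mRpS34, was kept. Their median was -0.69 on the 2nd day, against -0.11 on the 7th, and 9 of the 12 still had a 7th day mean below 0. They include genes of the fat body and its lipid traffic, transporters of solutes and an enzyme of peroxisomal fatty acid breakdown. The class of every one of the 12 was the same without 7th day replicate 4.

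Among fat body genes, fit, a female-enriched transcript of head fat body whose secreted product acts in satiety, had ratios of -1.13, -1.46, -1.13 and -1.28 on the 2nd day. On the 7th day it was at -0.60, -0.40 and 0.74 in replicates 1, 3 and 4. The 7th day values all lay above those of the 2nd day, but the mean of -0.09 rests on replicate 4: without it the 7th day mean was -0.50. The difference was 1.16 (SE 0.31, limma adjusted p = 0.735), and 0.75 without that array. The gene apolpp encodes the apolipophorin precursor, which forms the main lipid-carrying lipoprotein of the haemolymph. Its ratios were -0.85, -0.28, -0.84 and -0.94 on the 2nd day and -0.63, -0.39, 0.25 and -0.33 on the 7th. The groups overlapped through 2nd day replicate 2, and the difference was 0.45 (SE 0.22, adjusted p = 0.735). The gene regucalcin, whose mammalian counterpart is a calcium-binding protein, had ratios of -0.57, -0.71, -0.50 and -0.28 on the 2nd day and 0.20, 0.10, 0.32 and -0.16 on the 7th. Here the groups did not overlap, and the difference was 0.63 (SE 0.14, adjusted p = 0.735). In pools of whole heads, fewer fat body cells and less RNA per cell cannot be told apart.

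CROT, CG8654 and CG5707 had the smallest p of the returned genes. CROT is the fly counterpart of carnitine O-octanoyltransferase, which in mammals prepares medium-chain acyl groups for export from the peroxisome. Its 2nd day ratios were -1.05, -1.0, -1.08 and -1.21, and its 7th day ratios were -0.34, 0.26 and -0.25 in replicates 1, 2 and 4. The groups were apart, with a difference of 0.97 (SE 0.17, limma adjusted p = 0.380). The predicted solute transporter gene CG8654 had ratios of -1.27, -1.01 and -1.02 in replicates 1 to 3 of the 2nd day and -0.22, -0.34, -0.11 and -0.39 on the 7th day. All 7th day values were above the 2nd day values but still below 0, and the difference was 0.84 (SE 0.13, adjusted p = 0.380). CG5707 was close to -0.79 on every 2nd day array, with ratios of -0.85, -0.79, -0.71 and -0.80. On the 7th day it was at 0.17, 0.29 and -0.17 in replicates 1, 2 and 4, again with no overlap, and the difference was 0.88 (SE 0.14, adjusted p = 0.380). Of the 2nd day changes, fit, CROT and CG5707 had the smallest adjusted p against NF on the 2nd day among the genes described here, at 0.035, 0.035 and 0.044 (limma, over 5415 features), where 11 features were called lower (0.203%) and 1 higher (0.0185%). On the 7th day no feature of 7289 was called against NF in either direction at that threshold (0%), and 241 lower (3.31%) and 371 higher (5.09%) had an unadjusted p under 0.05.

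Of the remaining returned genes, CG3036, a predicted anion transporter, was at -0.53, -0.67, -0.83 and -0.96 on the 2nd day and at -0.29, -0.62, 0.30 and -0.51 on the 7th, with a difference of 0.47 (SE 0.21). Vps4, the ATPase that disassembles the ESCRT membrane-sorting machinery, was at -0.42, -0.71, -0.37 and -0.62 on the 2nd day and at 0.46, -0.32 and 0.16 in replicates 1, 2 and 4 of the 7th day. In Vps4 the groups did not overlap, while in CG3036 they did. CG14687 averaged -0.56 ± 0.30 (SD, n = 4) on the 2nd day and -0.11 ± 0.31 (n = 4) on the 7th, and CG10516 averaged -0.53 ± 0.16 (n = 3) and -0.07 ± 0.35 (n = 4). The predicted acyl-CoA ligase CG3961 had the smallest difference among the 11, from -0.52 ± 0.13 (n = 4) to -0.20 ± 0.53 (n = 4). Over the 41 lower features, 17 had 7th day values that did not overlap those of the 2nd day, against 5.20% of all features in either direction; the choice of features by their 2nd day values raises that number, so nothing is read from it.

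**Figure D2:**
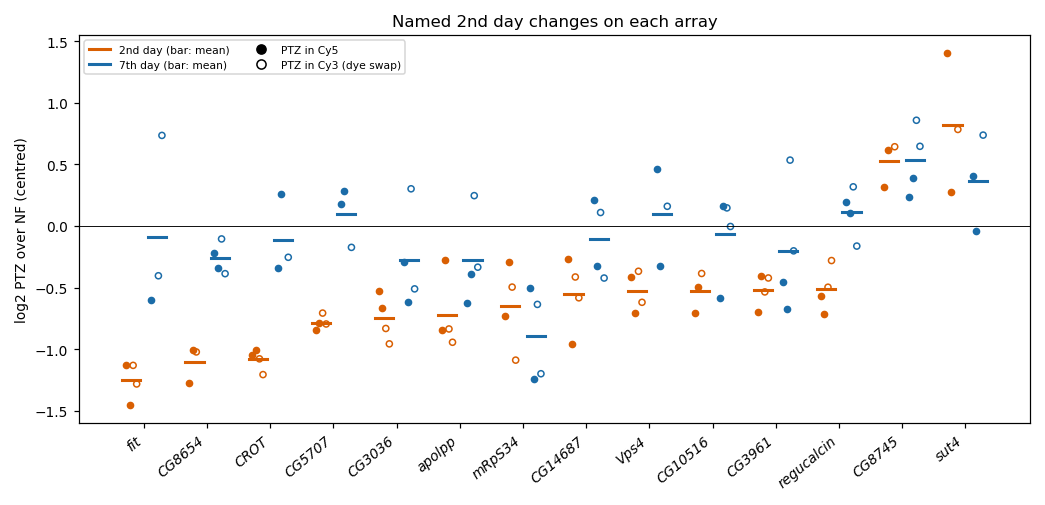
Log2 PTZ over NF on each array for the 14 named 2nd day changes, ordered by their 2nd day mean; filled points carry PTZ in Cy5, open points in Cy3, and bars are means. The 7th day means of 11 of the 12 lower genes lie between -0.28 and 0.11, and that of mRpS34 at -0.90; every point of mRpS34 and of CG8654 is below 0 at both times.

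Other 2nd day changes could not be followed. Of the 62 features that met the size rule on the 2nd day, 7 had values on fewer than 3 arrays of the 7th day, all of them named genes. Their number of 7th day values was 0 for AkhR (the adipokinetic hormone receptor), bmm (brummer, the fly adipose triglyceride lipase), fbp (fructose-1,6-bisphosphatase, an enzyme of gluconeogenesis) and alpha-Est2 (an esterase). It was 1 for CG4757 and 2 for CG3407 and Gpdh1 (glycerol-3-phosphate dehydrogenase). On the 2nd day AkhR averaged -0.54 ± 0.08 (SD, n = 4) and bmm 0.60 ± 0.23 (n = 4). Whether the receptor and the lipase returned was therefore not measurable here. CG30154 had the opposite gap, with ratios of 0.58, 0.61, 1.5 and 0.54 on the 7th day and no value on the 2nd.

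The named gene kept low was mRpS34, a protein of the small mitochondrial ribosomal subunit. It was at -0.73, -0.29, -0.50 and -1.09 on the 2nd day and at -0.50, -1.25, -0.64 and -1.20 on the 7th. The groups overlapped, and the difference was -0.24 (SE 0.23, limma adjusted p = 0.791). Of its relatives, 17 of 47 named mitochondrial ribosomal protein genes were tested; 12 of the 17 had differences below 0, their median was -0.05 (-0.14 without 7th day replicate 4 and -0.27 without centring), and mRpS34 had the lowest 7th day mean of the genes described here, at -0.90. The kept named gene on the higher side was CG8745, a predicted aminotransferase, with ratios of 0.31, 0.61 and 0.64 on the 2nd day and 0.24, 0.39, 0.86 and 0.65 on the 7th. Its 2 means, 0.52 and 0.53, differed by 0.01 (SE 0.18), and the sign of so small a difference turned under 7 of the alternatives. The sugar transporter gene sut4 had a wide spread on the 2nd day, at 1.41, 0.28 and 0.78, and was at 0.40, -0.04 and 0.74 in replicates 1, 2 and 4 of the 7th day. It counts as returned with a 7th day mean of 0.37, but the groups overlapped.

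By the same size limit, 95 features were changed on the 7th day (2.26%), of which 10 were already there on the 2nd day and 19 lay between. The other 66 (1.57%) were new, meaning that the 2nd day mean was under 0.25 in size. Of these 26 were lower (0.620%) and 40 higher (0.953%), and 17 and 32 of them were unnamed pairs. Both days chose these features, so no test is given for them. Without 7th day replicate 4, the numbers were 85 lower and 154 higher, and 23 of the 26 and 37 of the 40 were again new. Just inside the limit stood lost at -0.50 and GstE14 at 0.51, and just outside it Su(dx) at -0.50 and knrl at 0.50.

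The 9 named genes that were new and lower include an enzyme of detoxification, a gut protease and a histone. GstD1, a glutathione S-transferase of detoxification and oxidative stress defence, was at 0.39, 0.25, 0.37 and -0.02 on the 2nd day and at -1.06, -0.53, -0.51 and -0.46 on the 7th. All of its 7th day values lay below those of the 2nd day, by a difference of -0.89 (SE 0.17). Jon65Aiv, a serine protease of the digestive tract, was at 0.26, -0.04, 0.13 and 0.00 on the 2nd day and at -0.77, -0.76 and -0.14 in replicates 1, 2 and 4 of the 7th. His2Av, the fly H2A variant of chromatin, had the lowest 7th day mean of the new named genes, -0.70 ± 0.52 (SD, n = 4), against -0.06 ± 0.28 (n = 3) on the 2nd day. The groups of His2Av overlapped, since its 7th day values ran from -1.32 to -0.17. The mitochondrial thiolase gene yip2, of fatty acid oxidation, was at -0.88, -0.97 and -0.18 in replicates 1, 2 and 4 of the 7th day, after -0.36, 0.59, -0.20 and -0.43 on the 2nd. The others were HIP, a co-chaperone of Hsp70, at -0.57 ± 0.51 (n = 4), twe, a Cdc25-type phosphatase of meiosis, at -0.55 ± 0.74 (n = 3), and r-l, an enzyme of pyrimidine synthesis, at -0.53 ± 0.38 (n = 4). Cog4, a subunit of a Golgi tethering complex, was at -0.51 ± 0.21 (n = 3) and lost at -0.50 ± 0.33 (n = 4). Of these 9 genes, GstD1, Jon65Aiv, Cog4 and lost had groups that did not overlap, against 3.24% of all features with the 7th day below; the rule used both days and so raises that number, and nothing is read from it.

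The 8 named genes that were new and higher had 7th day means of 0.51 to 0.61. Opa1, the GTPase that fuses mitochondrial inner membranes, was at -0.14, 0.03, 0.41 and -0.03 on the 2nd day and at 0.44, 0.66 and 0.74 in replicates 1, 2 and 4 of the 7th. GstE14, a glutathione S-transferase needed for ecdysteroid synthesis, was at 0.05, 0.02, 0.12 and -0.02 on the 2nd day and at 0.46, 1.0, 0.38 and 0.19 on the 7th. In both genes the groups were apart, and GstE14 lay on the other side of NF from GstD1, a relative in the same superfamily. CG9689 was at -0.04 ± 0.16 (SD, n = 4) on the 2nd day and 0.51 ± 0.20 (n = 4) on the 7th, with a difference of 0.55 (SE 0.14). CG15580 was at -0.08, -0.09, -0.10 and 0.08 on the 2nd day and at 0.46, 0.91 and 0.39 on the 7th, a difference of 0.63 (SE 0.16). CG6497 and CG12863 also had 7th day values wholly above those of the 2nd day, with means of 0.55 ± 0.34 (n = 3) and 0.52 ± 0.33 (n = 3). CG10466 and the alkaline phosphatase gene Alp8 averaged 0.54 ± 0.48 (n = 3) and 0.54 ± 0.46 (n = 3), and their groups overlapped. Of all features, 1.95% had 7th day values wholly above those of the 2nd day. The rule used both days and so raises that number among these genes, and nothing is read from it.

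**Figure D3:**
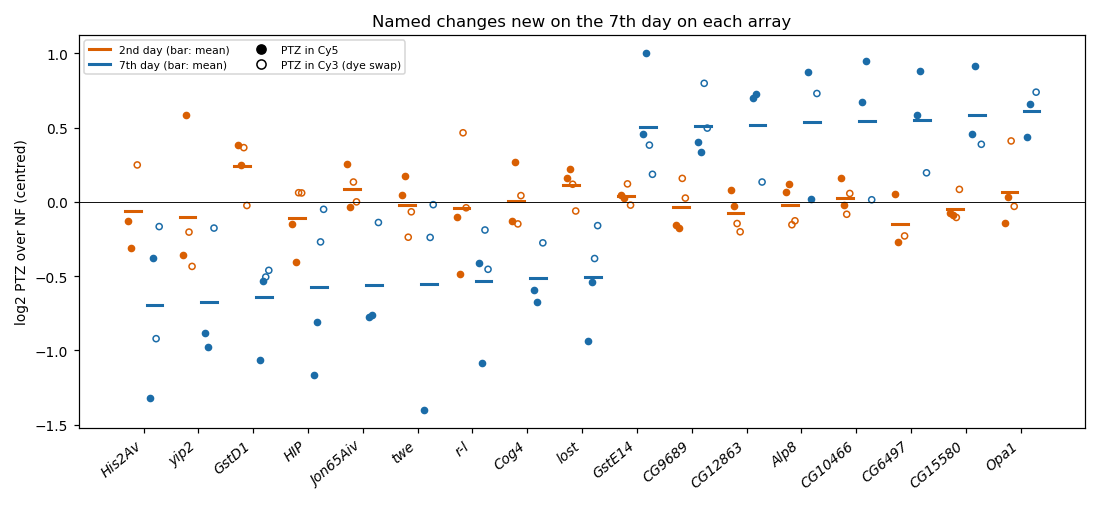
Log2 PTZ over NF on each array for the 17 named changes new on the 7th day, ordered by their 7th day mean; filled points carry PTZ in Cy5, open points in Cy3, and bars are means. The 2nd day points cluster around 0, and the open 7th day points of the lower genes are often nearer to 0 than the filled ones.

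Genes outside these classes also had 7th day values that did not overlap those of the 2nd day. Over all 4196 features, those of the classes included, 136 had all 7th day values below those of the 2nd day (again 3.24%) and 82 had all above (1.95%). Act88F, the actin of indirect flight muscle, was at 0.30, 0.30, -0.09 and -0.05 on the 2nd day and at -0.47, -0.42, -0.38 and -0.29 on the 7th, a difference of -0.50 (SE 0.13). The 7th day arrays were close together, while on the 2nd day the Cy5 arrays were above the Cy3 arrays. Probes for actin genes share sequence, so a cDNA probe may also bind transcripts of other actins, and the same holds for glutathione S-transferases. The profilin gene chic, which serves actin assembly, was at 0.19, 0.18, 0.18 and 0.02 on the 2nd day and at -0.24, -0.16, -0.25 and -0.14 on the 7th. CG11089 went from 0.22 ± 0.05 (SD, n = 4) to -0.40 ± 0.24 (n = 4), a difference of -0.62 (SE 0.14). Paip2, a repressor of translation that binds the poly(A)-binding protein, differed by -0.48 (SE 0.14), CG2267 by -0.45 (SE 0.13) and CG31249 by -0.33 (SE 0.11). On the higher side, Ndc1, a membrane component of the nuclear pore, was at -0.27 ± 0.08 (n = 4) on the 2nd day and 0.43 ± 0.43 (n = 3) on the 7th. ArfGAP3, which regulates Golgi traffic, differed by 0.42 (SE 0.13) and CG8520 by 0.44 (SE 0.12). All of these had a limma adjusted p of 0.735.

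Lists of related genes were read against the 58.0% of all features whose difference was below 0 and the median of -0.04, as a description with no test of the list. No member of any list passed the adjusted test. Of the 13 tested cytosolic ribosomal protein genes of 20 named on the array, 12 had differences below 0, with a median of -0.18. Translation factors had 14 of 19 below 0 (median -0.14) and the proteasome, which degrades tagged proteins, 10 of 12 (median -0.15). Examples were RpS7 at -0.43 (SE 0.18), the initiation factor subunit eIF3f1 at -0.52 (SE 0.17) and the proteasome subunit Prosbeta5 at -0.47 (SE 0.17). In the ribosomal protein genes the order of the dyes moved with the difference. Their medians on the Cy5 arrays were 0.20 and 0.19 on the 2nd day and -0.24 and -0.33 on the 7th. On the Cy3 arrays they were -0.13 and -0.18, then 0.01 and -0.16. The lower 7th day level of these genes was thus seen with Cy5 and not with Cy3. Translation factors had Cy5 medians of 0.05 and -0.002, then -0.27 and -0.16, and Cy3 medians of 0.01 and -0.10, then -0.16 and -0.06. For the proteasome the Cy5 medians were 0.04 and 0.10, then -0.39 and -0.08, and the Cy3 medians 0.04 and -0.07, then -0.10 and -0.08. The part of the dyes was not tested. Without 7th day replicate 4 the medians of the 3 lists were -0.21, -0.19 and -0.22, and without centring -0.05, -0.05 and -0.08.

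In energy metabolism, 6 of 7 glycolytic genes had differences below 0, with a median of -0.20, which was -0.31 without 7th day replicate 4 and -0.06 without centring. Their array medians with Cy5 were 0.12 and 0.08 on the 2nd day and -0.32 and -0.42 on the 7th, and with Cy3 -0.04 and -0.38, then -0.05 and -0.04. The hexokinase gene Hex-A was at 0.30, 0.08 and 0.06 in replicates 1, 2 and 4 of the 2nd day and at -0.16, -0.42, -0.20 and -0.04 on the 7th, with no overlap. Gapdh1 differed by -0.42 (SE 0.22), and its groups overlapped. Respiratory chain and ATP synthase genes had 15 of 21 below 0, with a median of -0.13 that was -0.04 without 7th day replicate 4 and -0.05 without centring. Genes of lipid mobilisation and oxidation had 6 of 9 below 0 (median -0.06, and -0.12 without centring), with yip2 at -0.57 and CROT at 0.97 as the ends of their range. The list of proteins that fat body secretes or carries had 6 of 11 below 0 (median -0.01) and held fit and regucalcin as its members with an unadjusted p under 0.05, which 6.29% of all features had. That median was 0.02 without 7th day replicate 4 and 0.23 when arrays were also scaled to a common spread.

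In the cytoskeleton and muscle lists, all 3 tested genes of the actin and tubulin list were below 0 (median -0.34, and -0.20 without centring). They were chic, the actin regulator cib at -0.39 (SE 0.13) and the tubulin gene betaTub60D at -0.13. That list held no actin gene. Muscle structure genes had 6 of 9 below 0, with a median of -0.07 that was -0.12 without 7th day replicate 4 and -0.19 without centring. Their members with an unadjusted p under 0.05, which 6.29% of all features had, were Act88F and Act87E, the latter at -0.39 (SE 0.14). The germline and dorso-ventral axis list had 7 of 9 below 0 (median -0.12) and oxidative stress defence 5 of 5 (median -0.21, GstD1 included), with medians of -0.25 and -0.36 without centring. Genes of neuronal excitability, GABA and synapse were 4 of 11 below 0, with a median of 0.11, which was 0.28 without centring, and none at an unadjusted p under 0.05. The cytochrome P450, glutathione S-transferase and UDP-glycosyltransferase list was split, with 16 of 35 below 0 and a median of 0.01, which was 0.04 without 7th day replicate 4 and 0.08 without centring. Phototransduction genes had 8 of 9 below 0 with a median of -0.06, which was 0.04 without centring. Without 7th day replicate 4 only 5 of the 9 were below 0, against 58.1% of all features. Against the general run of mitochondrial ribosomal protein genes, mRpS30 had all 7th day values above those of the 2nd day, with a difference of 0.64 (SE 0.19), and mRpL20 differed by 0.50 (SE 0.19). Of the chaperone genes 4 of 8 were below 0 (median -0.16), and that median was -0.08 without 7th day replicate 4 and 0.01 without centring.

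**Figure D4:**
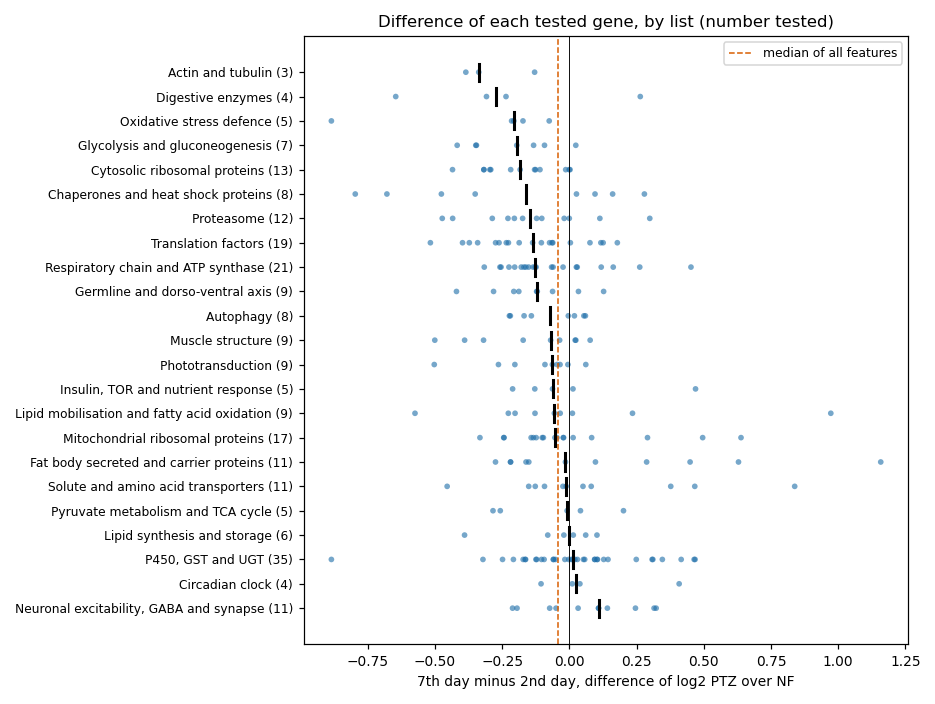
Difference of log2 PTZ over NF, 7th day minus 2nd day, of every tested gene in the 23 lists with at least 3 tested members (number tested in parentheses); black bars are list medians and the dashed line is the median of all features, -0.04. Ribosomal protein, proteasome and glycolysis genes lie mostly left of 0, whereas fat body genes reach from -0.27 to 1.16.

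At 12 hrs and on the 14th day the genes of the 2 classes were followed with values that neither rule used. Of the returned genes, fit and apolpp were already low at 12 hrs, fit at -0.85 and -1.25 on the 2 arrays with a value and apolpp at -0.70, -0.25, -0.44 and -0.62. CG14687 was low there as well, at -0.51 ± 0.06 (SD, n = 4). CROT and CG8654 were not low at 12 hrs, with means of 0.26 ± 0.58 (n = 4) and 0.61 ± 0.58 (n = 4). On the 14th day fit was at 0.36, 0.15, 0.19 and 0.95 and apolpp at 0.58, -0.31, 0.69 and 0.39. All values of fit and 3 of 4 of apolpp were then above NF. Vps4 was again low, at -0.64, -0.61 and -0.69 on the 3 arrays with a value. mRpS34, low on both days, was at 1.06 ± 0.34 (n = 4) at 12 hrs and at -0.06 ± 0.26 (n = 4) on the 14th day, and CG8745 was at -0.03 ± 0.22 (n = 4) on the 14th day.

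Of the new lower features, 6 of the 21 measured on at least 3 arrays of the 14th day were below 0 there, against 45.0% of all features. Of the new higher ones 12 of 30 were above 0, against 55.0%. GstD1 was at 0.26, 0.36, -0.08 and -0.63 on the 14th day, split between the sides of NF. GstE14 was at 0.47, -0.25 and -1.18, likewise with no common direction. His2Av, at 0.17 ± 0.04 (SD, n = 4), was above 0 on every 14th day array. At 12 hrs 11 of 23 new lower and 13 of 35 new higher features had the sign of the 7th day, against 46.5% and 53.5% of all features below and above 0.

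**Figure D5:**
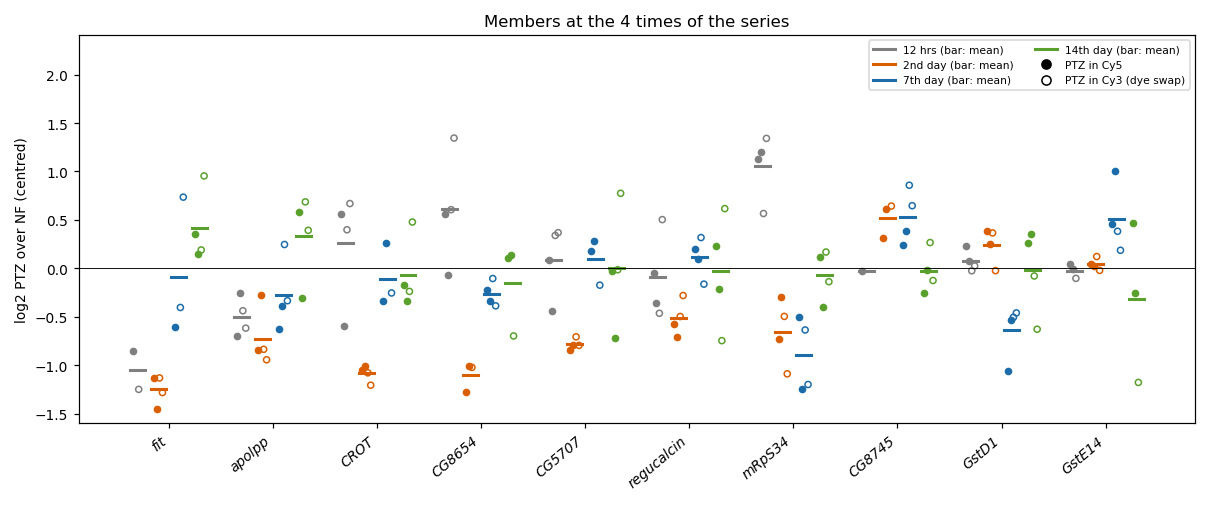
Log2 PTZ over NF on each array for 10 of the genes described, at 12 hrs, 2 and 7 days of PTZ and on the 14th day (7 days after withdrawal); filled points carry PTZ in Cy5, open points in Cy3, and bars are means. CROT, CG8654 and CG5707 have their lowest mean on the 2nd day, fit and apolpp are low at 12 hrs as well, and mRpS34 is low on the 2nd and 7th day.

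The table used here holds ratios only, so the labelled head tissue can be checked by which markers had values, not by their levels. On the 7th day 5 of 6 photoreceptor markers had values on at least 3 arrays. So did the gut markers Jon65Aiv, Jon66Cii and Jon99Fii. The same held for BigH1, aub, orb and piwi of ovary and germline and for NimC1 and Pxn of haemocytes. Having values thus does not single out head tissue. Of 9 fat body markers 4 were tested, of which fit, apolpp and regucalcin are themselves among the returned genes and Yp3 is not. All 4 had differences above 0, and their median per array ran from -1.11 to -0.49 on the 2nd day and from -0.62 to 0.29 on the 7th. The yolk protein gene Yp3 differed by only 0.10 (SE 0.58), with 7th day values from -1.44 to 0.91, and by -0.40 without 7th day replicate 4. Lsp2 and bmm had no value on the 7th day, Obp99b none on the 2nd, and Yp1 and Yp2 were measured on fewer than 3 arrays. On the 2nd day the marker bmm was above 0, at 0.44, 0.58, 0.93 and 0.46, on the other side of NF from the median of the 4 tested markers. The part of fat body amount in the return was not tested. The 2 gut markers tested, of 4 on the array, were below 0, Jon65Aiv at -0.65 and Jon66Cii at -0.31. The digestive enzyme list, which holds both, had 3 of 4 below 0. Its exception was the related protease gene Jon25Biii at 0.26 (SE 0.21). The part of gut tissue in the new lower genes was not tested. Muscle markers had a median of -0.18 (3 of 4 below 0, and 2 of 4 without 7th day replicate 4), photoreceptor markers of -0.15 (likewise 3 of 4 and 2 of 4) and glial markers of 0.28 (0 of 2). The neuronal marker nSyb was at 0.14, ovary and germline markers were 1 of 2 below 0 (median -0.08), and none of 3 haemocyte markers was tested.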

How the data were processed

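The authors scanned the 2-colour arrays in GenePix Pro, filtered out spots of poor quality and applied ratio-based normalization in Acuity. The deposited table holds log2 ratios of red (Cy5) over green (Cy3) for 27648 spots, with the centring not stated. Ceiling values of 16.61 (32 in the 8 arrays) were treated as missing. Gene names came from the platform annotation and the Release 6 gene table, used for names only: 15116 rows have 1 gene, 102 several and 12430 none. Each array was centred on its median, replicates 3 and 4 were multiplied by -1 and rows of 1 gene were averaged. As a check of sign, genes that the study lists as lower on the 7th day had, before turning, median percentiles of 12.7 (replicate 1), 15.4 (replicate 2), 76.5 (replicate 3) and 70.6 (replicate 4). The study drew that list from its own 7th day arrays, so the check is not independent of these values.

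The difference was fitted with limma 3.58.1 in R 4.3.3 (lmFit, eBayes) and adjusted over all features. The threshold of 0.19 is the highest false discovery rate the study's methods used. The fits were tested on simulated data with independent noise on each array and no dye effect. That test therefore does not cover the dye effects of these arrays. The main fit had no dye term, so its p-values measure the spread between arrays. That spread holds differences between dye orientations as well as between sets of vials. The 4 arrays a time point limit the precision. Features with 3 arrays have unequal dyes, for which a dye term was an alternative.

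The members, the 24 gene lists and the rules were chosen with earlier results of these data known. Named genes were the called ones, the 10 with the smallest p in each direction among those without overlap, the 8 largest of each class and direction with genes named in earlier work, and up to 4 of the smallest p in each list; the other named members of the 2 classes, Yp3, trbd, Cyt-b5-r, Su(dx), knrl and the genes called without 7th day replicate 4 were named after their values were seen. No sequence is printed.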

Additional observations from a re-analysis of the deposited data

Results flagged for a closer look

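Dixon's test for a stray sample was applied to 52 groups of 4 arrays, and chance alone gives about 1 in 20. In 4 groups a value stood apart. GstD1 was at -1.06 in 7th day replicate 1, below the other 3 arrays. The value of apolpp was -0.28 in 2nd day replicate 2, above the others. For chic 2nd day replicate 4 was at 0.02, below the others, and for CG15580 the same array was at 0.085, above the others. The unnamed pair in array rows 9267 and 9268 was flagged because its PTZ effect differed between the 7th and the 2nd day, by -1.35 (limma adjusted p = 0.145).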

How the results depend on the processing

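The number of arrays, their dye effects and 7th day replicate 4 limit these results. The difference between the days gave 1 lower and 0 higher feature. It gave 0 lower and 0 higher at an adjusted p under 0.05, after scaling, with a shared dye term, with all 4 arrays required, over single rows and with a trended, robust eBayes. Without centring it gave 2 lower and 24 higher, and in the shared fit of 16 arrays 1 and 1. Leaving out 1 array gave 0 to 8 lower, the called pair being lost without 2nd day replicate 1, 3 or 4 or 7th day replicate 1, 2 or 3, and 0 to 23 higher (6 without 2nd day replicate 2, 1 without 7th day replicate 3). The replicate numbers did not pair the arrays (correlations of same-numbered deviations 0.03, -0.06, -0.01 and 0.03), and the fit with the replicate block gave 0 lower and 0 higher.

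Against NF, the 2nd day gave 11 lower and 1 higher, at an adjusted p under 0.05 4 and 0, and with 1 array left out 0 to 11 and 0 to 1, with 0 lower without replicate 3 or 4 and 3 without replicate 1. The 7th day gave 0 and 0, with a dye term 1 and 1, without centring 0 and 1, and with 1 array left out 0 to 2 and 0 to 3, the highest without replicate 1.

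At a size of at least 0.75, 17 changes returned, 3 were kept, and 1 lower and 8 higher ones were new. At 0.4 the new ones numbered 66 and 62, and without centring 15 were new and higher. With a ratio limit of 0.3, 21 returned and 22 were kept. With 1 array left out, 30 to 72 returned (72, 66 and 57 without 2nd day replicate 2, 3 and 4), 11 to 19 were kept (19 without 2nd day replicate 3) and 3 to 17 turned (17 without 2nd day replicate 2, 16 without replicate 4, 14 without replicate 1 or 3, and 3 without 7th day replicate 3). Left-out arrays gave 19 to 85 new lower ones (80 without 7th day replicate 3, 85 without replicate 4) and 32 to 154 new higher ones (78 without 7th day replicate 2, 154 without replicate 4). A set of 3 arrays meets the rule of 1 sign more readily than a set of 4.

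Over 65 features and 18 settings, 1109 of 1137 values kept direction and side of the threshold, 8 passed it without 7th day replicate 4 only, and 11 values of the called pair did not. Every feature but the called pair was uncalled in the main fit, so keeping its side means staying uncalled. Many were also chosen by a small p or a large mean, so the 1109 values are no measure of robust effects. The sign turned for mRpS34 after scaling (0.079), for sut4 without centring (0.041) and for CG8745 after scaling (-0.14), with the shared dye term (-0.047), with separate dye terms (-0.021), with the replicate block (-0.10) and without 2nd day replicate 1, 7th day replicate 3 or 7th day replicate 4 (-0.10 to 0.11 over all left-out arrays). The list medians under other scalings and without 7th day replicate 4 were chosen after seeing the data. Without centring, each difference moved by an amount set by which arrays held a value. GstD1, measured on every array, went from -0.89 to -0.75. CG5707, lacking 7th day replicate 3, went from 0.88 to 1.34, and CG31249, lacking 7th day replicate 2, from -0.33 to -0.61. List medians without centring thus depend on which arrays lacked values. The cause of the other shifts was not tested.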
